A study of Mus musculus with 8 samples.

Results

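The 9 genes described here belong to the route by which the T cell receptor raises calcium and moves NFAT transcription factors into the nucleus. They are Nfatc1, Nfatc2, Nfatc3 and Nfat5, which encode NFAT factors, Rcan1, which encodes a calcineurin inhibitor, Stim1 and Orai1, which encode the calcium entry machinery, and Ppp3ca and Ppp3cb, which encode catalytic subunits of calcineurin. They were chosen by function, and each probe set whose platform annotation gave 1 of these symbols and no other was taken. All 9 had a probe set, 23 in all, out of 12393 genes and 20380 probe sets with a single symbol.

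The study measured RNA of activated CD8 T cells of OT-1 mice, whose T cells carry 1 transgenic receptor for a peptide of ovalbumin (OVA). Cells of 4 mice, A to D, were split between ID8 cells, a mouse ovarian cancer line, that overexpressed PD-L1, which binds PD-1, an inhibitory receptor of T cells, and ID8 cells depleted of PD-L1. Both kinds of target carried the OVA peptide, the co-culture lasted 4 h at 30 T cells per target cell, and the T cells were then recovered by magnetic separation and hybridised to 1 array each. That gave 4 arrays for the PD-L1-overexpressing group and 4 for the PD-L1-depleted group, 2 per mouse. All targets come from 1 tumour line, how PD-L1 was altered and the age of the mice are not in the labels, and T cells without targets were not analysed here.

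When the T cell receptor is engaged, calcium leaves the endoplasmic reticulum, STIM1 senses the empty store, and ORAI1 opens as the channel of the cell membrane. Calcium with calmodulin then switches on the phosphatase calcineurin, which removes phosphates from NFAT proteins so that they enter the nucleus and, with partners such as AP-1, start cytokine genes. NFAT5 is the exception among the factors, since it lacks the calcineurin control and is known for the response to osmotic stress. Most of this control acts on calcium flow and on protein phosphorylation, whereas the arrays measured transcript amounts only.

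Rcan1 is the member whose transcription is best known as a read-out of the pathway, because 1 of its start sites responds to calcineurin and NFAT. Both start windows of Rcan1 are therefore shown, and so is that of Nfat5, the only member passing a test in the main fit below. They follow RefSeq on GRCm38.p6, from 250 bases before to 50 after the annotated start, 5′ to 3′ on the gene's strand. The capitals mark each GGAAA or TTTCC, the 2 strands of the short core that NFAT proteins recognise; matches of the 2 strands cannot overlap here. The first Rcan1 window lies at chr16:92466120-92466419 and the second at chr16:92400029-92400328, both on the minus strand, and the Nfat5 window at chr8:107293220-107293519 on the plus strand.
Rcan1, first start: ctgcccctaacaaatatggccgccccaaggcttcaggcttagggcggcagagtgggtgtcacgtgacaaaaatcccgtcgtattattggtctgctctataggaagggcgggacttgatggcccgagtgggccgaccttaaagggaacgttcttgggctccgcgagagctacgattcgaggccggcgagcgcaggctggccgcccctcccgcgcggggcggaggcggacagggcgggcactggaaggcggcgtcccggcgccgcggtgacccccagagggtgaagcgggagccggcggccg
Rcan1, second start: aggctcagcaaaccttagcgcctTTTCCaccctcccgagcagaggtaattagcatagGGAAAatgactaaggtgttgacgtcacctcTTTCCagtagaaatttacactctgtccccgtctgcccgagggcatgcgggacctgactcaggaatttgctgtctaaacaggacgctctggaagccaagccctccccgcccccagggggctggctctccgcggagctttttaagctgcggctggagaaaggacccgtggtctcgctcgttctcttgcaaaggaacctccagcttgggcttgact
Nfat5: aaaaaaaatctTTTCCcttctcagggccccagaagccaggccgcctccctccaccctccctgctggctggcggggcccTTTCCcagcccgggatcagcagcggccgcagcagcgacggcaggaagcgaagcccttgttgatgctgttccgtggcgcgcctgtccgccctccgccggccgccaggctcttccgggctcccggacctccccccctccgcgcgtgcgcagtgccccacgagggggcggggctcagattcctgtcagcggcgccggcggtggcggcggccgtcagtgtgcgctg

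The first Rcan1 window held 0 matches and the second 3, starting at -227, -193 and -163 with the annotated start as 0. Of 32851 such windows of all genes, 61.3% held at least 1 match and 9.42% at least 3. The Nfat5 window held 2, and 26.7% of all windows held at least that many. Among 10 windows of 7 members, that of Ppp3cb held the most, 4, a number reached by 2.65% of all windows, and those of Orai1 and Stim1 held 0. A match is a description of letters in the window and not a site shown to be bound, and which Rcan1 start the probe sets report was not examined.

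All values below are the deposited log2 expression values, and a difference between targets is PD-L1-overexpressing minus PD-L1-depleted. For a gene with several probe sets, the one with the highest mean stood for it. All 9 members lay above the floor of 6.87 applied to the mean of a gene, and so did 17 of the 23 probe sets. The T cell label was borne out by 7 of 7 measured markers (Cd3d, Cd3e, Cd3g, Cd247, Cd8a, Cd8b1 and Zap70) above the floor, with list means from 12.21 to 12.33 in the PD-L1-overexpressing group and from 12.17 to 12.33 in the PD-L1-depleted group. Of 20 markers of the ID8 or mesothelial targets, 12 were also above the floor, among them Upk3b and Msln. The list mean, taken over all 20 markers, was 7.46, 7.02, 7.74 and 7.69 (mice A to D) with PD-L1-overexpressing targets. With PD-L1-depleted targets it was 6.98, 7.68, 7.34 and 7.29, so mouse B ran opposite to the others. Upk3b alone read 9.28, 7.51, 9.95 and 9.78 with PD-L1-overexpressing targets and 7.61, 9.79, 8.07 and 7.96 with PD-L1-depleted targets, and B was near a mirror image of A, C and D. Msln, Sparc and Cald1 showed the same pattern, but not every marker above the floor did, among them Epcam and Cav1. Cav1 read 7.23, 7.37, 7.54 and 7.49 with PD-L1-overexpressing and 7.21, 7.35, 7.96 and 7.66 with PD-L1-depleted targets. Whether the 2 labels of mouse B were exchanged cannot be told from these values, so the labels were kept, and statements on 4 of 4 mice depend on them. Cd274, which encodes PD-L1 and is also expressed by activated T cells, read 10.07, 9.73, 9.33 and 9.48 with PD-L1-overexpressing targets and 10.09, 9.80, 9.47 and 9.43 with PD-L1-depleted targets (difference -0.0421, SE 0.0408), and so does not check the labels of any mouse. The part of the tumour markers in the target differences was not tested. Without mouse B their list mean and the target label run the same way and cannot be told apart. Of other cells, only Ighm among 6 B cell markers, Csf1r and Cd68 among 7 macrophage or dendritic markers, 0 of 1 NK cell marker, and Cd4 and Ikzf4 among 3 CD4 or regulatory markers passed the floor. In such bulk samples, fewer cells of a type and less RNA per cell cannot be told apart.

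No member passed the test between targets. With the mouse as a block in limma, 0 of 9 members passed, beside 0% of 8003 genes, and the differences ran from -0.0641 (Ppp3cb) to 0.0919 (Ppp3ca). The limma adjusted p was 0.9995 for each, and 1 member, Ppp3ca, had an unadjusted p under 0.05, as had 2.85% of all genes. Of the 9, 7 had a positive and 2 a negative difference, and their median was 0.0144, against 53.4% higher and a median of 0.00327 over all genes. The 95% interval farthest from 0 reached 0.174, a 1.13-fold change, for Ppp3ca, and the lowest bound was -0.161, 0.895-fold, for Nfatc2. In every member the 2 groups of 4 arrays overlapped, as in nearly all probe sets: 1.2% of 22626 had groups that did not.

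**Figure D1:**
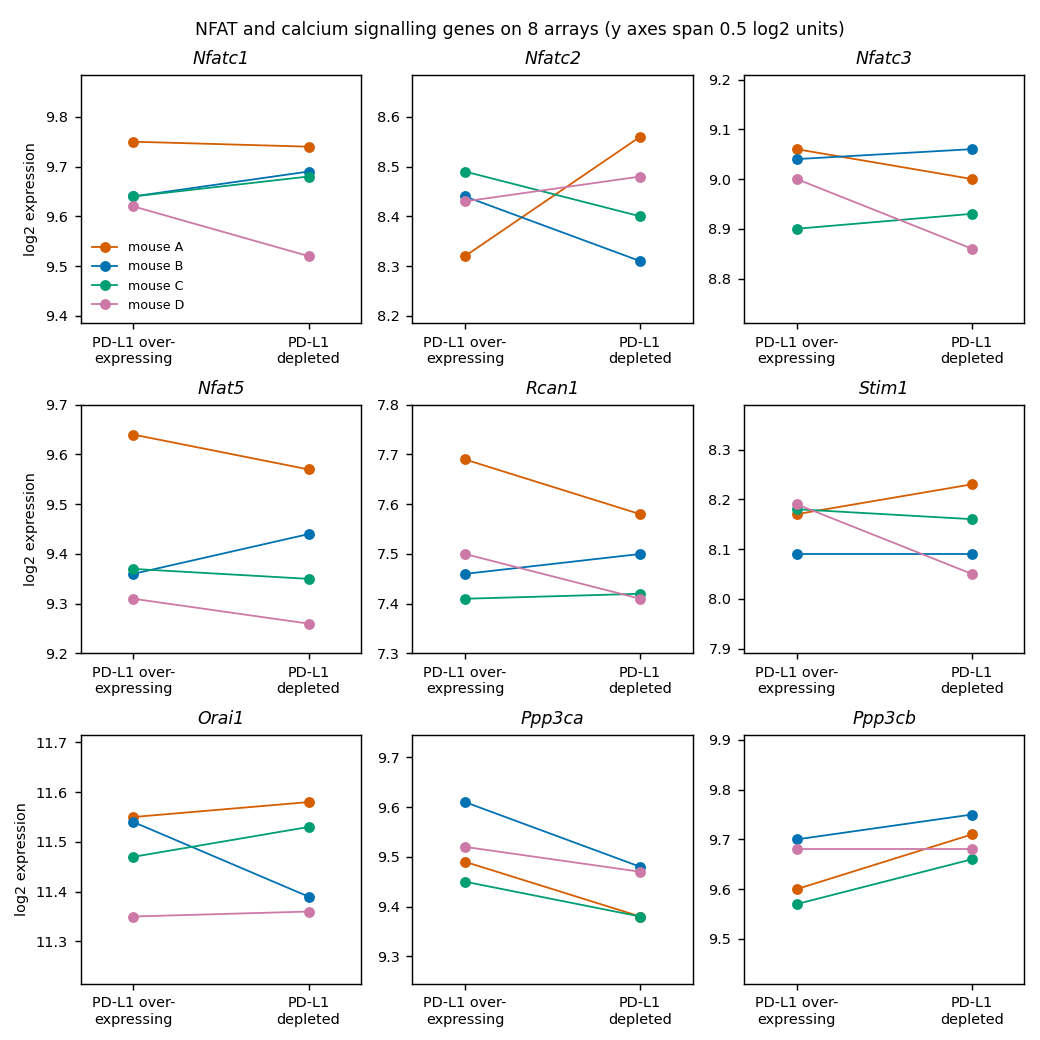
Deposited log2 expression of the 9 members on the 8 arrays, with PD-L1-overexpressing targets on the left and PD-L1-depleted targets on the right of each panel; a line joins the 2 arrays of a mouse, and every axis spans 0.5 log2 units. The groups overlap in every panel, Ppp3ca slopes the same way in 4 of 4 mice, and both arrays of mouse A lie above the others for Nfat5 and Rcan1.

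Nfatc1 encodes the NFAT factor that is itself induced on T cell activation. It stood at 9.75, 9.64, 9.64 and 9.62 (mice A to D) with PD-L1-overexpressing targets and at 9.74, 9.69, 9.68 and 9.52 with PD-L1-depleted targets. The groups overlapped, and 2 of 4 mice had the higher value on the overexpressing side. Its difference of 0.0058 (SE 0.0391) was smaller than its SE. The spread within the groups, 0.0592 and 0.0953 (SD, n = 4 each), also holds differences between mice, which the pairing takes out. The second Nfatc1 probe set averaged 9.53 over the 8 arrays and differed by 0.0309 (SE 0.0350).

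Nfatc2 encodes NFAT1, the main NFAT factor of resting T cells. Its leading probe set read 8.32, 8.44, 8.49 and 8.43 with PD-L1-overexpressing targets and 8.56, 8.31, 8.40 and 8.48 with PD-L1-depleted targets. The mice went both ways: the difference was -0.241 in A and -0.046 in D, but 0.130 in B and 0.0972 in C. The mean of -0.0151 (SE 0.0644) was far inside that spread. A second probe set above the floor (mean 7.44) gave -0.0882 (SE 0.0793) and was lower in mice A, C and D and higher in B. The remaining 2 averaged 6.46 and 5.06, under the floor.

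Nfatc3 encodes NFAT4, which is found in thymocytes and mature T cells. It read 9.06, 9.04, 8.90 and 9.00 with PD-L1-overexpressing targets and 9.00, 9.06, 8.93 and 8.86 with PD-L1-depleted targets. The difference was 0.0328 (SE 0.0439), positive in 2 of 4 mice. For the second probe set (mean 8.37) the difference was 0.0557 (SE 0.0504), positive in mice B, C and D. Both probe sets were higher on average, but mice A, B and C changed sign between them. The leading one carries the suffix Affymetrix gives to probes shared by several transcripts.

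Nfat5 averaged 9.42 ± 0.149 in the PD-L1-overexpressing group and 9.40 ± 0.131 in the PD-L1-depleted group (SD, n = 4 each). The difference was 0.0144 (SE 0.0399), higher in A, C and D and lower in B. Its other 3 probe sets averaged 5.90, 5.72 and 5.03, under the floor, with differences of -0.0823, -0.0522 and -0.117. For the dimmest of them the 2 groups did not overlap, with 4.98, 4.95, 4.98 and 4.99 in the PD-L1-overexpressing and 5.03, 5.02, 5.17 and 5.15 in the PD-L1-depleted group. Of all 22626 probe sets 1.2% had groups that did not overlap, and with no floor this one had a limma adjusted p of 0.9928.

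Rcan1 encodes a protein that binds calcineurin and restrains it. It stood at 7.69, 7.46, 7.41 and 7.50 with PD-L1-overexpressing targets and at 7.58, 7.50, 7.42 and 7.41 with PD-L1-depleted targets. Its difference was 0.0353 (SE 0.0570). The gene was higher in mice A and D and lower in B and C, so its 4 pairs split evenly. The 95% interval ran from -0.0935 to 0.164. A second probe set averaged 6.17, under the floor, and its 4 pairs gave 0.249 (A), -0.213 (B), 0 (C) and -0.162 (D).

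Of the calcium entry genes, Stim1, the store sensor, read 8.17, 8.09, 8.18 and 8.19 with PD-L1-overexpressing targets and 8.23, 8.09, 8.16 and 8.05 with PD-L1-depleted targets. Its difference was 0.0245 (SE 0.0505), and mouse D had the widest of the 4, 0.135. The second Stim1 probe set carries the suffix Affymetrix gives where probes may also match other sequences, and it differed by 0.0577 (SE 0.0653). Orai1, the channel pore, read 11.55, 11.54, 11.47 and 11.35 with PD-L1-overexpressing targets and 11.58, 11.39, 11.53 and 11.36 with PD-L1-depleted targets. It was lower in mice A, C and D and higher, by 0.145, in B, which gave a mean of 0.00984 (SE 0.0363). Orai1 without mouse B differed by -0.0353 (SE 0.0301), so that mouse set the sign. The second Orai1 probe set showed the same split, negative in A (-0.127), C and D (-0.00579) and positive in B (0.0978).

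The calcineurin subunits were the members whose targets differed the same way in all mice, and they ran in opposite directions. Ppp3ca read 9.49, 9.61, 9.45 and 9.52 with PD-L1-overexpressing targets and 9.38, 9.48, 9.38 and 9.47 with PD-L1-depleted targets. In 4 of 4 mice the overexpressing side was higher, by 0.110, 0.134, 0.0675 and 0.0566, yet the groups overlapped, since D and B with PD-L1-depleted targets stood above C with PD-L1-overexpressing targets. The mean was 0.0919 (SE 0.0363, 95% interval 0.00988 to 0.174), with an unadjusted p of 0.0320 and a limma adjusted p of 0.9995. The other 2 Ppp3ca probe sets did not follow. The first (mean 9.07) gave 0.0379 (SE 0.0491), positive in 2 of 4 mice, and the second (mean 8.67) gave -0.0522 (SE 0.0552), positive in mouse A only.

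Ppp3cb read 9.60, 9.70, 9.57 and 9.68 with PD-L1-overexpressing targets and 9.71, 9.75, 9.66 and 9.68 with PD-L1-depleted targets. It was lower with PD-L1-overexpressing targets in 4 of 4 mice, with -0.114, -0.0448, -0.0947 and -0.00272. The mean was -0.0641 (SE 0.0366, limma adjusted p = 0.9995). Its second probe set (mean 9.09) gave 0.0140 (SE 0.0470), positive in 3 of 4 mice. Over all genes tested 10.5% went the same way in 4 mice, beside these 2 of 9.

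**Figure D2:**
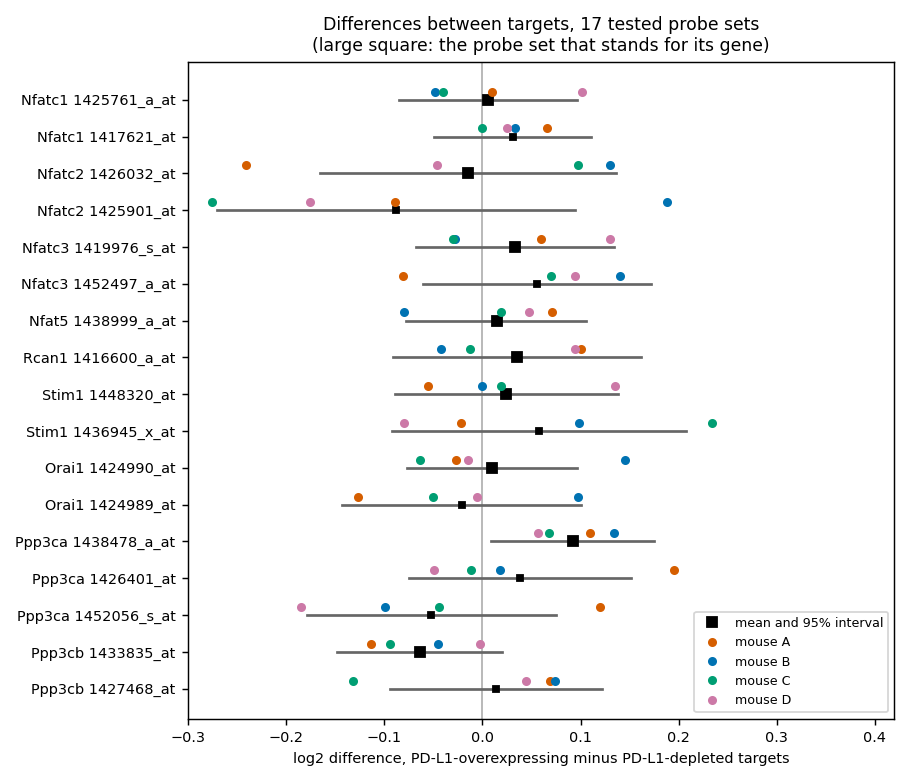
Log2 differences, PD-L1-overexpressing minus PD-L1-depleted targets, of the 17 probe sets of members above the floor; squares and lines are means with limma 95% intervals, and coloured points are single mice. The interval of 1 probe set, the leading one of Ppp3ca, leaves out 0, and the other probe sets of Ppp3ca and Ppp3cb do not repeat the direction of all mice.

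Fitted on all 13576 probe sets above the floor, 0 of the 17 members' probe sets passed between targets, beside 0% of all. Without mouse B, whose tumour marker mean ran opposite to that of the other mice, 2.2% of genes passed between targets, and 0 of 9 members did. The smallest limma adjusted p of a member in that fit was 0.476, for Ppp3ca, at 0.0779 (SE 0.0419), and Ppp3cb stood at -0.0705 (SE 0.0418). The NFAT genes gave 0.0237 (Nfatc1), -0.0633 (Nfatc2), 0.0531 (Nfatc3) and 0.0457 (Nfat5), and Rcan1 and Stim1 gave 0.0610 and 0.0327.

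The range of the 4 mouse means had a median of 0.137 over the members and 0.186 over all genes. Mice accounted for 94.1% of the sum of squares of Nfat5 over the 8 arrays, 84.2% for Rcan1, 81.0% for Nfatc1, 77.2% for Orai1 and 71.8% for Nfatc3, but for 16.0% for Nfatc2. The target accounted for 42.6% for Ppp3ca and 32.2% for Ppp3cb, and for at most 5.45% in the other members. These shares are descriptive, since mice hold 3 of the 7 degrees of freedom and the target 1.

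Of 9 members 1, Nfat5, passed limma's moderated F test between mice, beside 29.3% of all genes. Nfat5 was highest in mouse A, at 9.64 in its PD-L1-overexpressing and 9.57 in its PD-L1-depleted culture. The same 2 cultures read 9.36 and 9.44 in B, 9.37 and 9.35 in C, and 9.31 and 9.26 in D. Both arrays of A lay above the other 6, those of B and C overlapped, and those of D lay lowest, 1.25-fold under A on average (F test adjusted p = 0.0122). In mouse A Nfat5 was higher than the mean of the other mice by 0.257 (SE 0.0461, limma adjusted p = 0.00321). This call rests on the leading probe set, which also was the only 1 of 17 to pass the F test between mice at the probe set level, beside 23.5% of all. The mean of the T cell markers was lowest in mouse A, at 12.21 in the PD-L1-overexpressing and 12.17 in the PD-L1-depleted culture, and its part in the Nfat5 difference was not tested.

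The remaining members did not pass, and Orai1 came nearest. Orai1 differed from the other mice by 0.122 (SE 0.0420) in A and by -0.152 (SE 0.0420) in D, where both arrays, 11.35 and 11.36, were the lowest of the 8 (F test adjusted p = 0.0589). For Rcan1 mouse A differed by 0.186 (SE 0.0658, limma adjusted p = 0.0603), with 7.69 and 7.58 against 7.41 to 7.50 on the other arrays. The leading Nfatc1 probe set was also highest in mouse A, by 0.114 (limma adjusted p = 0.0863), and lowest in D, at -0.119 relative to the others. Its second probe set was highest in C (9.61, against 9.58 in A) and again lowest in D (9.42). Stim1 and Nfatc3 in mouse A differed by 0.0720 and 0.0626, and Nfatc2, Ppp3ca and Ppp3cb by 0.0186, -0.0518 and -0.0182. The order of animals was thus not shared by all leading probe sets. Those of Ppp3ca and Ppp3cb were highest in mouse B and lowest in C. The Ppp3ca probe set with mean 8.67 repeated this, but that with mean 9.07 was lowest in A (9.00) and highest in D (9.15). The second Ppp3cb probe set was also lowest in A (8.97) and highest in D (9.20).

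By animal, 1 member (Nfat5) was called higher and 0 lower in mouse A, where 18.1% of all genes were called higher and 12.7% lower. In mouse B 0 were called higher and 0 lower (6.3% and 2.96% of all genes), as in mouse C (3.09% and 5.35%) and mouse D (4.56% and 4.09%). Single animals decide these counts. Without mouse B, 3 of 9 members passed the F test, namely Nfat5 (adjusted p = 0.000153), Orai1 (0.000544) and Nfatc1 (0.0307), beside 44.4% of all genes. Without mouse A or without mouse D none did, beside 7.2% and 20.3% of all genes. Nfat5 had an F test adjusted p of 0.45 and 0.0504 in these fits.

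**Figure D3:**
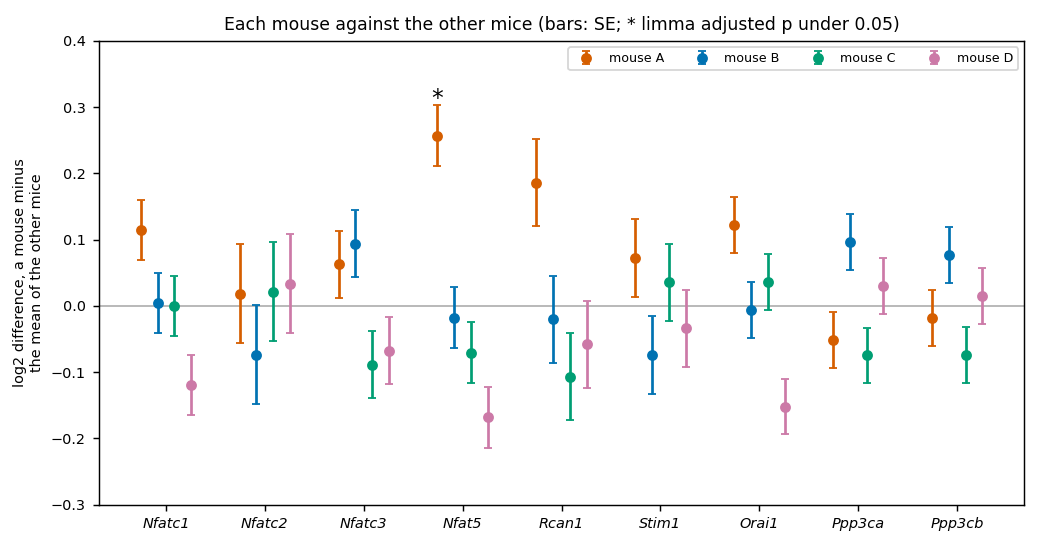
Log2 difference of each mouse from the mean of the other mice for the 9 members, with its SE from the limma fit; a star marks an adjusted p under 0.05. The single star belongs to Nfat5 in mouse A, at 0.257, and mouse D lies lowest for Nfat5, Nfatc1 and Orai1.

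The genes most like each member over the 8 arrays, by Pearson's r of log2 values, were read off as a description, since 2 arrays share each mouse. They are the highest among 8003 tested genes, so a high r here does not show shared control. Nfat5 was followed most closely by Prpf8, a core spliceosome gene (r = 0.993), Brd3 (0.991) and Itfg2 (0.989). For Nfatc1 these were Trim8 (0.975), Kdm5c (0.972) and Il2ra (0.964), which encodes the alpha chain of the interleukin 2 receptor. Orai1 was most like Grwd1 (0.984), Brd8 (0.982) and Puf60 (0.974), and Rcan1 most like Ubr4 (0.981), Smim19 (0.980) and Zfr (0.976). For Nfatc3 they were Ctdnep1 (0.978), Ppp1r15b (0.974) and Unc45a (0.960), and for Stim1 Tbc1d23 (0.953), Cenpv (0.935) and Ube2t (0.891). Nfatc2 (Zfp1, 0.950), Ppp3ca (Clybl, 0.931) and Ppp3cb (Dus3l, 0.931) had lower leading values. No member was among the nearest 3 of another.

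Other genes of the pathway were taken from lists by function, 62 in all, of which 46 had a single-symbol probe set in the table and 41 passed the floor. Among them 0 passed between targets, with 21 higher and 20 lower. Of the 22 signalling genes, 8 (36.4%) passed the F test between mice, near the 29.3% of all genes. In mouse A 9 were called higher and 2 lower, beside 18.1% and 12.7% of all genes. Ppp3r1, the regulatory subunit of calcineurin, was higher in mouse A by 0.192 (limma adjusted p = 0.0116). It read 10.53, 10.34, 10.35 and 10.25 with PD-L1-overexpressing targets and 10.48, 10.22, 10.37 and 10.34 with PD-L1-depleted targets, so mouse A was highest with both. Ppp3cc, the third catalytic subunit, did not pass (F test adjusted p = 0.301).

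Around calcium entry, 3 of 5 tested genes passed between mice, beside 29.3% of all genes. Atp2a2, which encodes the pump SERCA2 that refills the store, was higher in mouse A by 0.173 and lower in B, with -0.141. Atp2a3, the gene of the related pump SERCA3, was higher in B by 0.158 and lower in C, with -0.209, so the 2 pump genes did not share an order. Itpr2, which encodes a store release channel, was higher in A by 0.231. Stim2, Orai2, Orai3 and Itpr1 were among the listed genes not analysed here.

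Of the inhibitors, Rcan3 was higher in mouse A by 0.182 (limma adjusted p = 0.0349), although its F test did not pass (adjusted p = 0.128). Homer3, whose product competes with calcineurin for NFAT, had the widest difference between targets of the signalling genes named, -0.149 (SE 0.0711), and was lower in 3 of 4 mice (limma adjusted p = 0.9995). Nfatc4, a further NFAT gene, differed by -0.0878 (SE 0.0541) and was lower in 4 of 4. Of 7 kinase genes whose products send NFAT back out of the nucleus, 3 passed between mice, beside 29.3% of all genes, namely Csnk1a1, Csnk1d and Csnk1e. Csnk1a1 was lower in mouse A, with -0.109, and Csnk1e higher there, by 0.210. Dyrk1b, a further kinase gene of that list, was lower in mouse B, with -0.252 (limma adjusted p = 0.0446). Of 4 calmodulin-dependent kinase genes 1, Camkk2, passed (29.3% of all genes) and was higher in mouse A by 0.225, while Camk4 was lower there, with -0.180 (limma adjusted p = 0.0158).

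Of 19 tested genes that NFAT is known to switch on in T cells, 16 (84.2%) passed the F test between mice, beside 29.3% of all genes. These genes were listed with earlier results of these data known, so their share is a description only. In mouse D 1 was called higher and 12 lower, beside 4.56% and 4.09% of all genes, and in mouse A 7 higher and 2 lower, beside 18.1% and 12.7%. Il3, a growth factor gene, read 11.58, 10.06, 10.37 and 9.37 (mice A to D) with PD-L1-overexpressing targets and 11.75, 9.81, 10.34 and 9.26 with PD-L1-depleted targets, a range of 5.11-fold between mouse means. The 2 arrays of each mouse lay close together, and A stood highest and D lowest. Csf2, which encodes GM-CSF, ranged 2.15-fold, with A highest and D lowest as well. Tnfrsf9, the gene of the costimulatory receptor 4-1BB, was higher in mouse A by 0.244. Havcr2, the gene of TIM-3, went the other way, with -0.781 in mouse A. The members ranged 1.06-fold (Nfatc2) to 1.25-fold (Nfat5) between mouse means and the listed genes from 1.07-fold (Egr3, named here only as the lowest) to 5.11-fold, so the ranges overlapped and the difference was not tested.

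Between targets the same 19 genes had 10 higher, 9 lower, 0 passing and a median of 0.00197. Of the 3 named by their p, Havcr2 (0.0781, SE 0.0392) and Tnfrsf9 (0.0229, SE 0.0165) were higher in 4 of 4 mice and Nr4a1 lower in 4 of 4, where 10.5% of all genes went 1 way in 4 mice. Nr4a1, which rises on receptor signalling, read 12.61, 12.59, 12.58 and 12.47 in the PD-L1-overexpressing and 12.61, 12.67, 12.73 and 12.52 in the PD-L1-depleted group. Its difference was -0.0678 (SE 0.0266). The limma adjusted p was 0.9995 for each of the 3, and the groups overlapped.

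**Figure D4:**
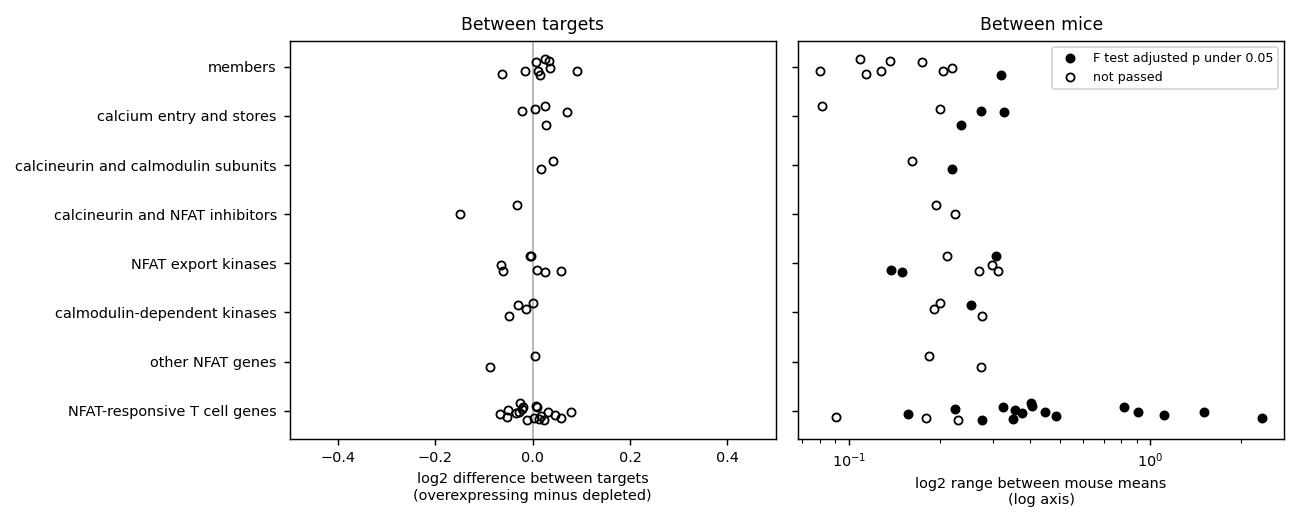
Each point is a gene, grouped by function; the left panel gives the log2 difference, PD-L1-overexpressing minus PD-L1-depleted targets, and the right panel, on a log axis, the log2 range between the 4 mouse means, filled where the F test between mice passed. The points of the left panel lie within 0.15 of 0, while the NFAT-responsive genes reach a range of 2.35 on the right and the highest member, Nfat5, 0.319.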

How the data were processed

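RNA of 8 samples was measured on 3' expression arrays after biotin labelling, per the labels' protocols. The deposited table holds 1 log2 value per probe set and array, from 3.60 to 15.24; the scale was read from the values, and how the authors summarised and normalised them is not given in the sources used here. The arrays, at equal rank, differed by at most 0.167, so a shift common to most genes may not be visible.

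Of 22690 probe sets, 64 controls were left out. Symbols came from the platform annotation; 691 probe sets with several symbols and 1555 with none named no gene. The probe set with the highest mean stood for a gene, and a gene was tested from a mean of 6.87 upward (the 40th percentile over probe sets), which left 8003 of 12393. Tests used limma 3.58.1 in R 4.3.3 (lmFit and trended eBayes). They were two-sided, and Benjamini-Hochberg adjusted p-values over all genes were read at 0.05. Mouse entered the target comparison as a block, since the series design divides each animal's cells between targets and the titles name the mouse. As a check of the pairing, both arrays of a mouse were centred on their groups, and their deviations correlated at 0.82, 0.16, 0.61 and 0.64 (A to D). Mice were compared by a moderated F test and each mouse against the mean of the others, with the target as covariate; 2 arrays of a mouse share its T cells, so those p-values reflect only variation among co-cultures. The number of arrays limits the precision.

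Members and lists were chosen with earlier results of these data known. The genes named were all members, up to 3 of each list with the smallest p in either comparison, and the 3 genes most like each member. Alternatives covered normalisation, filters, probe set choice, eBayes settings, array weights, threshold, the block and each mouse left out. The steps were run on simulated data that lacked the differences between mice seen here. The changes put in were larger than any target difference of a member. That run therefore does not show how well differences as small as those of the members would be found. The table held 0 columns of other samples.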

Additional observations from a re-analysis of the deposited data

Results flagged for a closer look

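For the 23 probe sets of members and the pathway genes named by rule, the 4 arrays of a target group were searched for 1 that stood apart, measured as its distance to the next array over the whole spread. This was so in 5 of 94 groups. A rate of 1 in 20 would give about 4.7, but it cannot be used as an expectation here. The pathway genes were picked by small p between targets or mice, and the 2 groups of a gene share mice. With PD-L1-overexpressing targets Nfatc1 was highest in mouse A (9.75, the next array 9.64, gap 0.861 of the range) and Stim1 lowest in mouse B (8.09, the next 8.17, gap 0.837). Camk4, which encodes a calmodulin-dependent kinase, was lowest in mouse A with PD-L1-overexpressing targets (8.98, the next 9.17, gap 0.966). Csnk1d, the gene of a casein kinase that phosphorylates NFAT, was lowest in mouse D with PD-L1-overexpressing (11.44, the next 11.55, gap 0.902) and with PD-L1-depleted targets (11.41, the next 11.55, gap 0.940).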

How the results depend on the processing

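Between targets 0 members and 0 pathway genes passed under each of 15 alternatives, including no replicate block (0) and the mouse as a random replicate block (0), and 0 member probe sets passed with no filter. Small uncalled differences changed sign: Nfatc1 under quantile normalisation (-0.00638), and Orai1 with the mean of all probe sets (-0.00575) and with array weights (-0.0112). Leaving out 1 mouse gave ranges of -0.0262 to 0.0237 for Nfatc1, -0.0633 to 0.0603 for Nfatc2, -0.00437 to 0.0457 for Nfat5, -0.0123 to 0.0512 for Stim1 and -0.0353 to 0.0343 for Orai1.

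The members passing between mice numbered 1 and became 2 (Nfat5 and Orai1) with median centring, robust variances, array weights and a threshold of 0.1. Of all genes 29.3% passed in the main fit, and 32.2%, 34.7%, 37.4% and 40.9% under these alternatives in turn. The passing members became 0 with the mean of all probe sets, beside 30% of all genes. Under that setting Nfat5, Nfatc2 and Rcan1 fell below the floor and were not tested. Calls of a member in a mouse numbered 1 and became 4 with median centring, the stricter filter and robust variances, 5 with array weights, 6 at a threshold of 0.1, 2 without a trend and 0 with the mean of all probe sets. Leaving out 1 mouse gave 0 to 3 members, 0 to 7 such calls, 11 to 31 pathway genes and 10 to 17 NFAT-responsive genes. Of all genes, 7.2% to 44.4% then passed between mice. For calls in a mouse, the share of all genes was not counted under any alternative. Changes in the number of such calls are therefore not a result about the members. The main fit called 18.1% of all genes higher and 12.7% lower in mouse A. In mouse A, Nfatc2 differed by -0.0001 under quantile normalisation. Without 1 of the other mice, the mouse A difference ran from -0.00663 to 0.0335 for Nfatc2 and from -0.0483 to 0.0085 for Ppp3cb. Nfat5 in mouse A stayed called in the 11 alternatives that tested it, at 0.226 to 0.282. The causes of these shifts were not tested. Members near the floor, such as Rcan1, and probe sets under it read low. Their signal over background was not measured, which limits what they can show.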
